A study of Homo sapiens with 4 samples.

Results

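The CCT chaperonin genes TCP1, CCT2, CCT3, CCT4, CCT5, CCT6A, CCT6B, CCT7 and CCT8 were taken by symbol from a gene-level RNA-Seq table of SK-MEL-28, an established human melanoma cell line. All 9 genes were present, each in 1 row, among 25268 gene symbols, and 8 of them passed a filter that asks for a mean of 1 FPKM or more over the libraries (fragments per kilobase of transcript and per 1000000 mapped fragments), as did 11147 genes in all. The cells carried either an empty pTRIPZ vector (vector line) or MYC under a Tet-inducible promoter (MYC line), introduced with lentivirus and selected with geneticin. Each line was sequenced without doxycycline (Dox) and with Dox after 54 h, which gave 4 libraries, 1 per condition. All cells were kept in G418 (geneticin). The sources do not state whether the lines were single clones. With 1 library per condition no difference has a replicate check, so no p-value is given. The libraries are called vector control, vector Dox, Myc control and Myc Dox.

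CCT, also called TRiC, is the cytosolic chaperonin of eukaryotes. It is built of a pair of stacked rings in which each subunit is encoded by its own gene, and it uses ATP to close over unfolded proteins and release them folded. Actin and tubulin are its best known clients, together with many proteins built of WD40 repeats, and it works with prefoldin, which hands over nascent chains, and with phosducin-like cofactors. CCT6A and CCT6B encode alternative forms of the zeta subunit, of which CCT6B is known mainly from testis.

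The depth was approximately 39000000 fragments for vector control, 35000000 for vector Dox, 42000000 for Myc control and 39200000 for Myc Dox, inferred from the steps between very low values. MYC itself had 58.3 FPKM in vector control, 54.8 in vector Dox, 76.5 in Myc control and 87.1 in Myc Dox. In log2 terms, MYC moved by 0.19 from Myc control to Myc Dox and by -0.09 from vector control to vector Dox. The 0.19 is smaller than the 0.39 between the untreated lines. It is also smaller than the value of any of the 8 CCT subunits past the filter, 0.32 to 0.61. The paper reports raised MYC mRNA after Dox by RT-PCR. Why MYC rose so little in these libraries was not tested. All 7 melanocyte markers (MITF, PMEL, MLANA, TYR, DCT, TYRP1 and SOX10) were detected in every library of this melanoma line. Their summed level was between 7771 and 7911 FPKM in 3 libraries and was 4414 FPKM in Myc Dox. Most of this sum was PMEL, with 6178 FPKM in Myc control and 3394 in Myc Dox. All 7 were lower with Dox in the MYC line, by log2 changes from -0.30 for SOX10 to -0.97 for TYRP1. DCT was not lower in Myc Dox than in vector Dox, at 65.1 and 61.9 FPKM. The summed level of 6 markers of other cell types (PTPRC, EPCAM, KRT5, KRT14, COL1A1 and PECAM1) was 0.761, 0.959 and 0.930 FPKM in vector control, vector Dox and Myc control and 2.85 FPKM in Myc Dox, of which EPCAM had 2.71. KRT5 and 1 or more others of this list were at 0 in each library. The part of these shifts in the results below was not tested. In bulk RNA, fewer cells of a type and less RNA per cell cannot be told apart.

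The 9 genes lie on 8 chromosomes of GRCh37 in the GENCODE annotation. TCP1 spans chromosome 6 from 160199530 to 160210735, CCT2 chromosome 12 from 69979206 to 69995350 and CCT3 chromosome 1 from 156278759 to 156337664. Chromosome 2 holds CCT4, from 62095220 to 62115806, and CCT7, from 73460548 to 73480149. CCT5 spans chromosome 5 from 10250041 to 10266501, CCT6A chromosome 7 from 56119378 to 56131682, CCT6B chromosome 17 from 33254878 to 33308097 and CCT8 chromosome 21 from 30428126 to 30446118. Only CCT4 and CCT7 share a chromosome.

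The bases just before the starts of the members were searched for short motifs. RefSeq windows of 250 bases before a start (GRCh38.p14) were matched for 8 of the 9 members, 10 windows in all, since CCT2 and CCT4 have 2 starts each. The CCT4 windows overlap, spanning 61888657 to 61888906 and 61888672 to 61888921, so they are not separate. The RefSeq starts were not matched to the GENCODE starts above, so a window can lie inside a gene. The CCT5 window appears to, so the bases before its GENCODE start may not have been searched. The sequences of the members with the highest log2 change in the MYC line, TCP1, CCT2 and CCT3, are shown with those of CCT8, whose pattern was nearest to the median of the members, and CCT6B, the member that went the other way. They run 5′ to 3′ on the strand of the gene. Capitals mark CCAAT, the E-box variant CACGCG and GAANNTTC, a short pattern searched for the heat shock element, each on either strand.
TCP1 (chr6:159789603-159789852, minus strand): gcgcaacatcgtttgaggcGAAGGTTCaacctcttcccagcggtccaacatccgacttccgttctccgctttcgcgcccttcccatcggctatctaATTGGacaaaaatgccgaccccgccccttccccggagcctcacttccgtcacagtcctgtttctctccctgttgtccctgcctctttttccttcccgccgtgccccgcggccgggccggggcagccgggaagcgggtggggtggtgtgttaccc
CCT2 (chr12:69585209-69585458, plus strand): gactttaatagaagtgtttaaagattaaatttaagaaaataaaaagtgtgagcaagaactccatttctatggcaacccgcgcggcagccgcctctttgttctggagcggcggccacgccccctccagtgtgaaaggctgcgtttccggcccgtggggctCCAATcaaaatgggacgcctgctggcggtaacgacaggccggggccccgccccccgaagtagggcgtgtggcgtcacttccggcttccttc
CCT3 (chr1:156338293-156338542, minus strand): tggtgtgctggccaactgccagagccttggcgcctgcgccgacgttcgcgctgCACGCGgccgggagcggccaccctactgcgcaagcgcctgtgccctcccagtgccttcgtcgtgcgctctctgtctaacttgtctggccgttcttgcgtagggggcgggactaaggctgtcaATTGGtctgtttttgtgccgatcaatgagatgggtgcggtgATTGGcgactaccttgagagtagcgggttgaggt
CCT8 (chr21:29073649-29073898, minus strand): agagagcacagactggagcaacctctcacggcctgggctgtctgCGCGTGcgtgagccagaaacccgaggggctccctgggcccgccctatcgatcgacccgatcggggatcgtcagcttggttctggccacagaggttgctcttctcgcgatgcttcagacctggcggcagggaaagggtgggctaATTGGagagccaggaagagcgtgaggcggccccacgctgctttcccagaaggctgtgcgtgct
CCT6B (chr17:34961461-34961710, minus strand): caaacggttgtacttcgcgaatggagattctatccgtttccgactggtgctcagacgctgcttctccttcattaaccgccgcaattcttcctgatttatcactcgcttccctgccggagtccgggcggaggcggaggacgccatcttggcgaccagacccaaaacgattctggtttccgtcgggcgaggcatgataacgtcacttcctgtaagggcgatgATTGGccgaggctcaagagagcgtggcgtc

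The E-box CACGTG, the sequence bound by MYC with MAX, was found in 0 of the 10 member windows, and 6.34% of all 35116 windows in the table held it. No match says only that these letters are not in this stretch. The variant CACGCG was found in the windows of CCT3 and CCT8 and in 9.72% of all windows. CCAAT, the box bound by NF-Y, was found in 5 of the 10 windows, those of TCP1, CCT3, CCT6B and CCT8 and 1 of CCT2, and in 32.0% of all windows. Also searched were the GC box GGGCGG, in 6 of the 10 windows and 42.6% of all, and the ETS site CCGGAAG, in 1 of the 10 and 8.52% of all. GAANNTTC, a short pattern searched for the heat shock element, was present 231 bases before the start of TCP1 and in the other window of CCT2. It was found in 5.78% of all windows, and longer forms of the element were not searched. CCT6B carried a CCAAT box 30 bases before its RefSeq start and CCT3 carried 1 at 34 bases. Distances to neighbouring genes elsewhere in the text use the GENCODE starts, which can differ from these. A match is a description of the letters and not evidence of binding.

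In the vector line without Dox, the subunits of the main complex ranged from 108 FPKM for CCT5 to 316 FPKM for CCT7. FPKM is per length, so levels of different genes can be set side by side only as far as the transcript lengths used hold. Those lengths are not given in the sources used here, so the order and shares of subunits carry this limit. The order was CCT7, CCT4, CCT3, CCT8, CCT6A, CCT2, TCP1 and CCT5, and it was the same in vector Dox and Myc control. The ratio of the highest to the lowest of the 8 was 2.91 in vector control, 3.07 in vector Dox, 2.68 in Myc control and 2.75 in Myc Dox. Several neighbours in this order were close: CCT4 exceeded CCT3 by 1.16% in vector control, CCT6A exceeded CCT2 by 0.101% in vector Dox, and TCP1 exceeded CCT5 by 3.93% in vector Dox. CCT7 stood clear of the next subunit in each library, by 30.4% to 36.9%. In Myc Dox the order was CCT7, CCT3, CCT4, CCT8, CCT2, TCP1, CCT6A and CCT5, so CCT6A moved from the fifth to the seventh place and TCP1 from the seventh to the sixth. With 1 library per condition it cannot be said which of these neighbours differ beyond the spread between cultures.

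**Figure D1:**
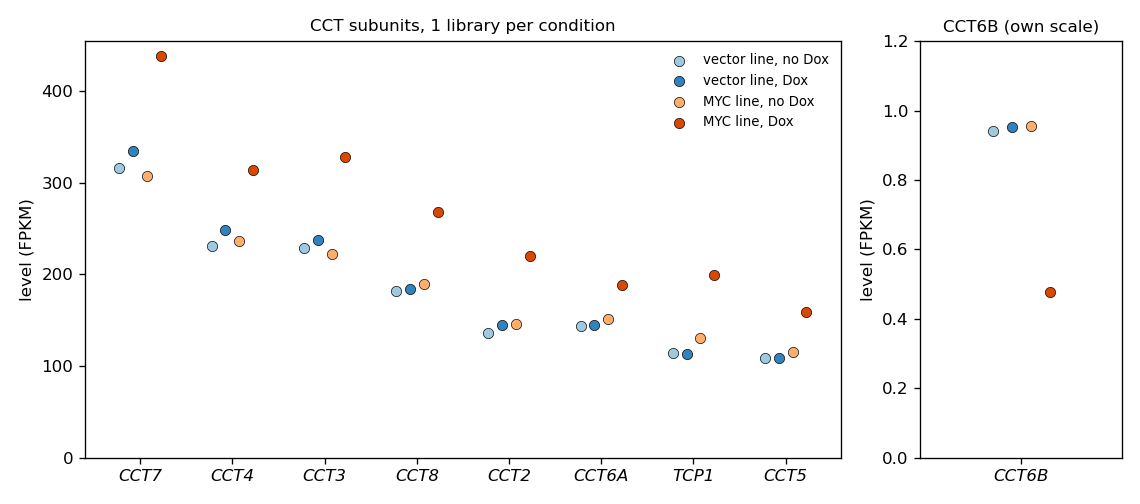
Level in FPKM (linear axis) of the 8 more abundant CCT subunits, left, and of CCT6B, right on its own scale, in the 4 libraries, each point being 1 library. Myc Dox is the highest point for each of the 8 subunits and the lowest for CCT6B, at 0.477 FPKM.

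The first comparison asks what Dox did in the line with inducible MYC. All 8 subunits past the filter were higher with Dox, by a median log2 change of 0.51, where the median over all 11147 genes was -0.03 and 46.8% of them were above 0. Of the 8, TCP1 and CCT2 rose at least 1.5-fold, a threshold passed upwards by 5.90% of all genes. These calls depend on the scale. None of the 8 passed 1.5-fold after scaling all 4 libraries to an equal FPKM sum, with TCP1 at 0.56 and CCT2 at 0.54. CCT3 joined them, as the third member, when each library was divided by its median ratio or its upper quartile. These scalings also moved the median of all genes, to -0.07, 0.02 and 0.001, and the share of all genes past 1.5-fold was not recalculated. At a lower threshold of 25% there were 7 of the 8, all except CCT6A, against 16.9% of all genes. None of the 8 was lower. The summed level of the 8 subunits went from 1497 FPKM in Myc control to 2114 FPKM in Myc Dox, 1.41-fold, and its share of all FPKM went from 0.216% to 0.295%.

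TCP1, the alpha subunit and the founding member of the family, had 114 FPKM in vector control, 113 in vector Dox, 130 in Myc control and 199 in Myc Dox. Myc Dox was the highest and Myc control the next, with the vector libraries level. Its log2 change with Dox in the MYC line was 0.61, the highest of the 8, with an approximate counting error of 0.0166, and 94.8% of genes were at or below it. This error comes from the number of fragments alone and leaves out the difference between cultures. TCP1 overlaps ACAT2, on the opposite strand, and whether the counting used strand is not given in the sources used here, so reads of these genes cannot be told apart where they overlap. ACAT2 had 56.5 FPKM in Myc control and 48.7 FPKM in Myc Dox.

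CCT2, the beta subunit, also described as a receptor that directs protein aggregates to autophagy, had 136 FPKM in vector control, 144 in vector Dox, 146 in Myc control and 219 in Myc Dox. Myc Dox was the highest, and the other libraries lay within 1.07 times of each other. Its log2 change in the MYC line was 0.59, with a counting error of 0.0174, which put it at 1.505-fold, just past the threshold of 1.5-fold.

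CCT3, the gamma subunit, had 228 FPKM in vector control, 237 in vector Dox, 222 in Myc control and 328 in Myc Dox. CCT7, the eta subunit and the most abundant, had 316, 334, 307 and 438 FPKM in the same order. For CCT3 and CCT7 alike, Myc control was the lowest library and Myc Dox the highest. The log2 change in the MYC line was 0.56 for CCT3 and 0.51 for CCT7, both under 1.5-fold. CCT3 overlaps TSACC on the opposite strand, which had 0.461 FPKM in Myc control and 0.693 FPKM in Myc Dox, and without strand the reads of the overlap cannot be told apart.

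CCT8, the theta subunit, had 182 FPKM in vector control, 184 in vector Dox, 189 in Myc control and 268 in Myc Dox. CCT5, the epsilon subunit, in which an inherited mutation causes a sensory neuropathy, had 108, 109, 115 and 159 FPKM in the same order. These genes were nearly level over the first 3 libraries and higher in the last, with log2 changes in the MYC line of 0.50 for CCT8 and 0.47 for CCT5.

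CCT4, the delta subunit, had 231 FPKM in vector control, 249 in vector Dox, 236 in Myc control and 313 in Myc Dox. CCT6A, the common zeta subunit, had 143, 145, 151 and 189 FPKM in the same order. These had the smallest differences with Dox in the MYC line, a log2 change of 0.41 for CCT4 and 0.32 for CCT6A, and 82.9% of genes were at or below the value of CCT6A.

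CCT6B, the alternative zeta subunit, had 0.940 FPKM in vector control, 0.952 in vector Dox, 0.955 in Myc control and 0.477 in Myc Dox. The first 3 libraries were level and Myc Dox was lower. Its mean of 0.831 FPKM is below the filter, so it is outside the counts above. The log2 change in the MYC line was -0.87 on the scale log2(FPKM + 0.1), with an approximate counting error of 0.30, as it rested on approximately 74.1 fragments in Myc control and 34.5 in Myc Dox. The log2 value depends on the pseudocount, from -0.40 with 1 to -0.99 with 0.01. CCT6B was 0.631% of the level of CCT6A in Myc control and 0.253% in Myc Dox. It overlaps ZNF830 and LIG3 on the opposite strand, at 9.15 and 8.29 FPKM in Myc control and 8.39 and 9.97 FPKM in Myc Dox, with which reads cannot be told apart where the genes overlap.

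**Figure D2:**
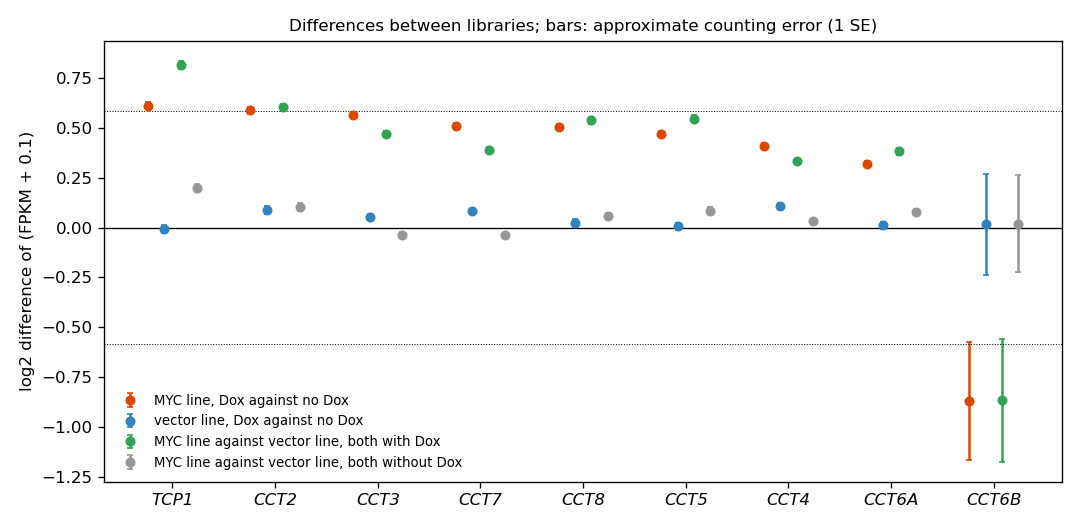
Log2 difference of (FPKM + 0.1) for each CCT gene in 4 comparisons of libraries, with bars of 1 approximate counting error and dotted lines at 1.5-fold. The 8 subunits lie between 0.32 and 0.61 with Dox in the MYC line and between -0.01 and 0.11 with Dox in the vector line, while CCT6B lies at -0.87 and 0.02.

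The second comparison, Dox in the vector line, asks what Dox did in cells without the inducible gene. The median log2 change of the 8 subunits was 0.04, and that of all genes was 0.01. None of the 8 passed 1.5-fold upwards, as 0.709% of all genes did, and none was higher by 25% or more, as 2.36% were. The values ran from -0.01 for TCP1 to 0.11 for CCT4, with CCT2 at 0.09, CCT7 at 0.08, CCT3 at 0.05, CCT8 at 0.02 and CCT6A and CCT5 at 0.01. CCT6B was also level, at 0.02 with a counting error of 0.25. Taken with its sign, the log2 change of each of the 8 subunits was higher in the MYC line than in the vector line. The same held for 45.5% of all genes, a share that does not compare the sizes of changes. For the 8 subunits the differences between the lines ran from 0.30 for CCT4 and CCT6A to 0.62 for TCP1, with a median of 0.47. These differences were not tested.

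Set against the vector line with both under Dox, the MYC line had higher levels of all 8 subunits, with a median log2 difference of 0.50 where that of all genes was -0.01 and 49.2% of them were above 0. TCP1 and CCT2 were at least 1.5-fold higher, against 6.50% of all genes, and all 8 were higher by 25% or more, against 18.2%. TCP1 stood furthest out, at 0.82, followed by CCT2 at 0.60, CCT5 at 0.55, CCT8 at 0.54, CCT3 at 0.47, CCT7 at 0.39, CCT6A at 0.38 and CCT4 at 0.33. CCT6B was lower in the MYC line, at -0.87. This comparison shares the Myc Dox library with the first, so it is not separate evidence.

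Without Dox, the MYC line and the vector line differed little in these genes. The median log2 difference of the 8 was 0.07 and that of all genes 0.02, and none was higher by 25% or more, as 2.49% of all genes were. TCP1 had the largest value, 0.20, with a counting error of 0.0190, and 91.8% of genes were at or below it. CCT2 followed at 0.10, and CCT3 and CCT7 were both at -0.04. In the same pair of libraries MYC had a log2 difference of 0.39, ACAT2, which overlaps TCP1, had 0.35, and MRPL18, whose start lies 109 bases from that of TCP1, had 0.17. The part of the overlap in the value of TCP1 was not tested.

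Read across the 4 libraries together, Myc Dox was above the highest of the other 3 in all 8 subunits, as it was in 40.2% of all genes, and by at least 25% in 7 of them, as in 13.2% of all genes. The margin ran from 24.6% for CCT6A, just under the threshold, to 52.8% for TCP1. The other 3 libraries stayed within 1.04 times of each other for CCT8 and within 1.15 times for TCP1, the widest of the 8.

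The proportions among the subunits shifted less than their levels. CCT7 made up 20.5% of the summed level of the 8 in Myc control and 20.7% in Myc Dox, and CCT8 12.6% and 12.7%. The share of CCT6A went from 10.1% to 8.92%, and that of CCT4 from 15.8% to 14.8%. The shares of TCP1, CCT3 and CCT2 were higher with Dox in the MYC line, by 0.715, 0.691 and 0.639 percentage points. In the vector line, Dox moved no share by more than the 0.588 points of CCT4. The untreated libraries also differed in shares, most for CCT7, at 21.7% in vector control and 20.5% in Myc control. TCP1 followed, at 7.79% and 8.71%, so shifts of this size also occur without Dox. The coefficient of variation among the 8 subunits was 39.5% in vector control, 41.4% in vector Dox, 34.7% in Myc control and 35.0% in Myc Dox, so it was lower in the MYC line with and without Dox.

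**Figure D3:**
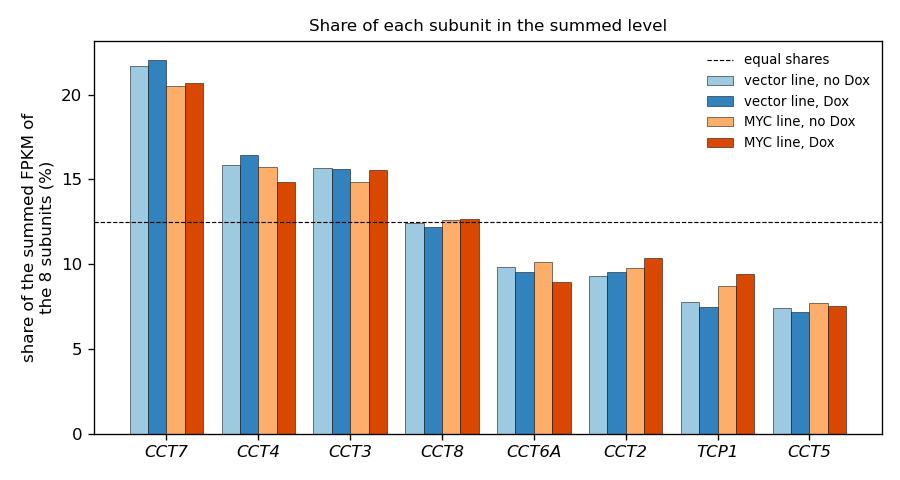
Share of each CCT subunit in the summed FPKM of the 8 subunits (percent, bars from 0) in each library, with a dashed line at equal shares. CCT7 holds 20.5% to 22.1% in each library, and the share of CCT6A is lowest in Myc Dox, at 8.92%.

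By the GENCODE starts, some members start next to a gene on the opposite strand, and the values of these partners differed. MRPL18, a mitochondrial ribosomal protein gene next to TCP1, went from 60.2 to 73.4 FPKM with Dox in the MYC line, a log2 change of 0.28. PSPH, the last enzyme of serine synthesis, whose start lies 81 bases from that of CCT6A, went from 11.5 to 14.5 FPKM, a log2 change of 0.32. COMMD1, 53 bases from CCT4, went the other way, from 108 to 82.4 FPKM, a log2 change of -0.38 beside 0.41 for CCT4. PRADC1, 181 bases from CCT7, had a log2 change of -0.11. ATPSCKMT, listed as FAM173B and 32 bases from CCT5, was at 0.06. None of these partners passed 1.5-fold. The snoRNA genes within TCP1 (SNORA20 and SNORA29) and within CCT6A (SNORA15 and SNORA22) were listed at 0 in all 4 libraries, as was MIR3913-2, which starts 603 bases from CCT2.

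Copies of CCT6 could share reads with CCT6A. CCT6P1 had 0.985, 0.807, 0.870 and 1.10 FPKM in vector control, vector Dox, Myc control and Myc Dox, and CCT6P3 had 0.715, 0.653, 0.695 and 0.923 FPKM. Both were highest in Myc Dox, as CCT6A was, at levels below 1% of it. CCT8L2 was listed at 0 in all 4 libraries.

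The mitochondrial chaperonin, which is built of a different class of subunit, rose with Dox in the MYC line. HSPD1, its barrel subunit, had 528, 533, 586 and 1085 FPKM in vector control, vector Dox, Myc control and Myc Dox, and HSPE1, its lid, had 594, 593, 604 and 982 FPKM. Both genes passed 1.5-fold with Dox in the MYC line, with log2 changes of 0.89 and 0.70, and both were level in the vector line, at 0.01 and 0.00. Of the chaperonin-like genes of the Bardet-Biedl syndrome, MKKS passed the filter, with a log2 change of 0.14, and BBS10 and BBS12 were below it.

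The genes that work with CCT moved less uniformly. Of the 6 prefoldin genes, PFDN2 rose just past 1.5-fold in the MYC line, from 242 to 365 FPKM, and its log2 change of 0.59 stood beside 0.34 in the vector line. PFDN4 had a log2 change of 0.45 in the MYC line and 0.04 in the vector line. PFDN1, VBP1, PFDN5 and PFDN6 were at 0.03, -0.01, -0.08 and 0.15, and the median of the list was 0.09. Of the 7 genes of the prefoldin-like and R2TP complexes, which assemble polymerases and other large machines, RUVBL1 rose to 76.7 FPKM from 43.4, which is 0.82 in log2. RUVBL2, its partner ATPase, was just short of 1.5-fold at 0.58, URI1 was at 0.48, and the median of the list was 0.23. The phosducin-like cofactors past the filter, PDCL, PDCL3 and TXNDC9, had log2 changes of -0.26, 0.13 and 0.03, none past 1.5-fold, and PDCL2 was listed at 0.

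None of the listed client genes past the filter rose 1.5-fold when the MYC line received Dox, against 5.90% of all genes. At that share, lists of 2 actins, 11 tubulins and 12 other clients are too short for a count of 0 to set them apart. Of the 8 CCT subunits, only TCP1 and CCT2 rose that far. The main cytoplasmic actins were lower with Dox in the MYC line, ACTB with a log2 change of -0.17 (2183 to 1941 FPKM) and ACTG1 with -0.25 (2375 to 1997 FPKM), without passing 1.5-fold, and ACTA1, ACTA2, ACTC1 and ACTG2 were below the filter. Of 11 tubulin genes past the filter, none rose at least 1.5-fold and TUBB2A and TUBB2B fell by at least that, with log2 changes of -0.64 and -0.81, where 8.85% of all genes fell as far. TUBB3 was at -0.47, and the median of the list was -0.04. TUBB2A and TUBB2B are near-identical copies, so the split of reads between them is uncertain. The 6 tubulin folding cofactors had a median of 0.11, with none higher by 25%. Of 12 other clients none passed 1.5-fold. At 25%, 4 of the 12 were higher, against 16.9% of all genes, and none was lower by as much. The largest values were 0.52 for CDC20, the activator of the anaphase-promoting complex, 0.48 for PLK1, a mitotic kinase, and 0.34 for MLST8, a subunit of mTOR complexes. CDC20 was also higher with Dox in the vector line, at 0.35.

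**Figure D4:**
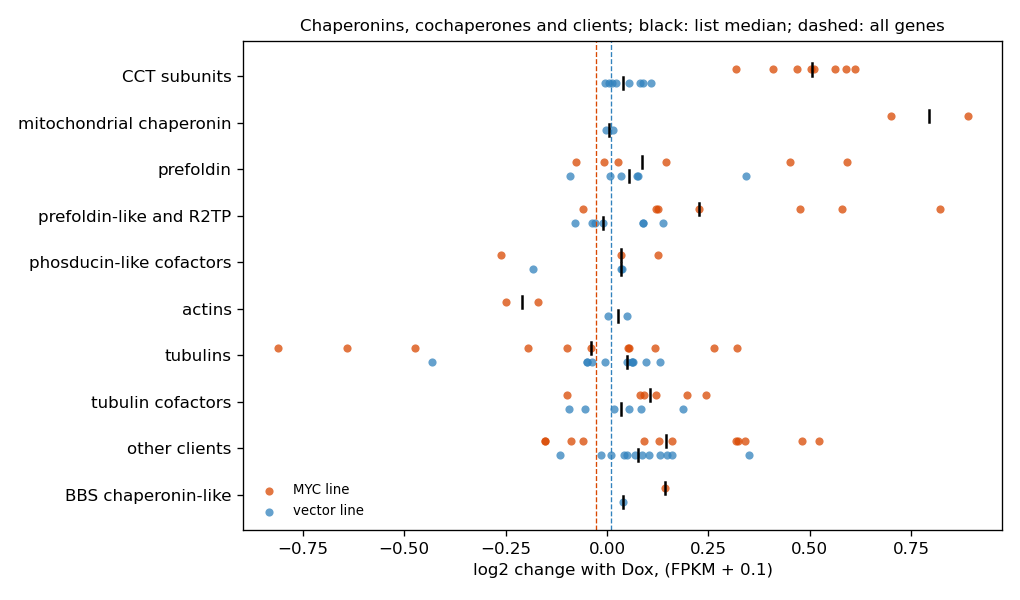
Log2 change with Dox, on the scale of FPKM + 0.1, of each gene past the filter in the CCT subunits and 9 related lists, in the MYC line (orange) and the vector line (blue), with black bars at list medians and dashed lines at the medians of all genes. The 8 CCT subunits lie together with a median of 0.51 in the MYC line, the tubulins spread from -0.81 to 0.32, and the vector line stays near 0.04 for CCT.

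The genes whose pattern over the 4 libraries was nearest to the median pattern of the 8 subunits, among 5527 genes averaging 10 FPKM or more, were PPIL1, BCCIP, NIFK, ATP5B and C2orf47. Likeness was the Euclidean distance between log2(FPKM + 0.1) profiles centred on their own means, which was 0.00640 for PPIL1 and 0.0233 for C2orf47. PPIL1 had 25.5, 26.2, 26.4 and 37.2 FPKM in vector control, vector Dox, Myc control and Myc Dox. CCT8 was the member nearest to the median pattern, at a distance of 0.0215, with 4 genes outside the complex closer than it, and TCP1 was the furthest, at 0.245, with 1188 closer. A pattern over 4 libraries is set mainly by the change in Myc Dox, and many genes share it.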

How the data were processed

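RNA-Seq of 4 libraries of SK-MEL-28 cells, 1 per condition, was analysed at the gene level. The table deposited by the authors holds FPKM for each gene symbol. Per the labels, the submitters' processing notes name TopHat2 2.0.14, Cufflinks and the build hg19 (GRCh37), and the annotation and strand setting are not given in the sources used here. Of 27032 rows, 1 that named no gene was left out, and the rows of 609 symbols with several rows were summed. Changes are differences of log2(FPKM + 0.1), which understate the change of low genes, over genes that average 1 FPKM or more. FPKM are not counts and no condition has a replicate, so no test was run.

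The members, lists, thresholds and alternatives were chosen with earlier results of these data known. The 25% threshold in place of 1.5-fold was among the alternatives, and its use for the margin of Myc Dox over the other 3 libraries was added after the values were seen. Named genes are the members, the genes of the lists (in lists of more than 6 genes, those past 1.5-fold and up to 3 with the largest change in the MYC line), the 5 genes nearest in pattern, genes that overlap a member or start within 1000 bases of it, and copies by symbol.

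Depth was approximated from genes under 0.2 FPKM. Of 3558 such genes with a value in at least 2 libraries, 66.9% held whole multiples, up to 12, of a single step within 1.2%, and 223 of these, whose gene has only 1 annotated transcript, 1500 bases or longer, gave the depth, with quartiles of 34600000 and 40700000 fragments for vector control. Fragments per gene and counting errors follow from this and from the canonical transcript length in GENCODE release 44. The calculation was tested on simulated data. Promoter windows are from RefSeq, and CCT6A was not matched. The software was Python 3.11.15 with numpy 2.4.6 and pandas 2.3.3, and matplotlib 3.10.9 for figures.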

Additional observations from a re-analysis of the deposited data

Results flagged for a closer look

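Among the members, TCP1 and CCT6B are given here because the sign of their log2 change with Dox differed between the lines, although in the vector line both were level. For TCP1 the log2 change was 0.61 in the MYC line and -0.01 in the vector line, a difference of 0.62. For CCT6B it was -0.87 and 0.02, a difference of -0.89, at levels below 1 FPKM. The vector line values are within their approximate counting errors of 0.0206 and 0.25, and that of CCT6B turned, to -0.00126, with upper-quartile scaling. Under this scaling CCT5 and CCT6A turned too, to -0.0145 and -0.00761, so the sign does not set TCP1 and CCT6B apart from them. The differences were not tested.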

How the results depend on the processing

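No paired analysis was possible because no condition has a second library, for which reason none could be left out either. The alternatives moved the median log2 change of the CCT members by less than 0.11, the robust SD over all genes between the untreated libraries. It lay between 0.46 and 0.55 with Dox in the MYC line, 0.02 and 0.05 in the vector line, 0.47 and 0.53 for the MYC line against the vector line with Dox, 0.03 and 0.09 without Dox, and 0.44 and 0.53 for the difference between the lines. The count of members past 1.5-fold depended on the scale and the threshold, since TCP1 and CCT2 lie just past it. With Dox in the MYC line, 2 members rose. The count was 0 after rescaling each library to the same sum and 3, with CCT3, after dividing each by its median ratio or its upper quartile. These scalings moved the median of all genes from -0.03 to -0.07, 0.02 and 0.001. At 25% the count was 7, against 16.9% of all genes, and at 2-fold it was 0. Against the vector line with Dox, 8 passed at 25%, against 18.2% of all genes, and 0 at 2-fold. Shares of all genes at 2-fold or after rescaling were not calculated. Without the filter, CCT6B enters as 1 member that fell in each of these comparisons. Of 302 recalculated values for single members, 6 moved further than 0.11, all of them CCT6B under other pseudocounts. The depth limits CCT6B most.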
